A study of Homo sapiens with 6 samples.

Results

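The goblet cell is the mucus-secreting cell of the airway and gut lining. Described here are 10 transcription factors, secretory proteins and mucus components grouped as goblet cell factors and mucus assembly proteins. They are AGR2, AGR3, SPDEF, FOXA3, CREB3L1, FCGBP, TFF1, TFF3, SCGB3A1 and VMO1. All 10 were chosen by name, with earlier results of these data known, and all were found among the 26364 genes of the deposited table. RNA-seq had been done on Calu3, a lung adenocarcinoma line that grows as a mucus-producing airway epithelium, in 3 libraries given a negative control siRNA (siNC, genotype control) and 3 given siRNA against BRD8 (siBRD8, genotype BRD8 KD). Both siRNAs were used at 20 nmol and delivered with the transfection reagent RNAiMax, so the control cells had been transfected too. BRD8 is a bromodomain protein of the histone acetyltransferase complex TIP60/NuA4, and the question put to these genes is whether their RNA differs once BRD8 is lowered. BRD8 was lowered with a single reagent. Nothing in the labels ties the libraries to separate cultures, and the p-values rest on a spread between libraries that may be technical.

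Goblet cells make gel-forming mucins, fold them in the endoplasmic reticulum, pack them into granules and release them at the apical surface. SPDEF, an ETS factor, and FOXA3, a forkhead factor, are regulators of this secretory fate, and CREB3L1 is a membrane-bound factor of the endoplasmic reticulum that is cut free to enter the nucleus and raises the capacity for secretion. AGR2 and AGR3 are disulfide isomerases of the thioredoxin fold, and AGR2 is needed to assemble gut mucin. FCGBP is a large mucus protein with von Willebrand D domains, TFF1 and TFF3 are trefoil peptides secreted with mucins, SCGB3A1 is a secretoglobin of airway secretory cells, and VMO1 is a secreted protein related to a protein of the egg's vitelline membrane.

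Values are normalized counts, that is each gene's reads scaled by the library's size factor, and each library held between 33640814 and 37896467 reads assigned to genes. Groups are given as mean ± SD over 3 libraries. BRD8 itself measured 2751, 2928 and 3067 normalized counts in control libraries 1 to 3 and 1312, 1084 and 1156 in the BRD8 siRNA libraries, a log2 fold change of -1.30 (SE 0.0904). KIF20A, on the other strand, shares exonic bases with BRD8, and with a kit that does not mark strand the reads of that overlap cannot be told apart. Control library 2 stood apart from the other libraries along principal component 2, with 20.6% of the variance. The epithelial label held: all 7 epithelial markers were measured, with summed levels of 320200 to 401590 normalized counts in the control libraries and 425800 to 479730 in the BRD8 siRNA libraries. Of 7 fibroblast genes COL1A2 and POSTN were at 0 in all 6 libraries, while COL1A1 measured 189 and 162 normalized counts in control and BRD8 siRNA libraries and LUM rose from 28.5 to 54.7. The call of LUM (adjusted p = 0.0211) ended without control library 3 or BRD8 library 1 or 3 (0.0519 to 0.0751), and the list's sums overlapped, at 213 to 226 and 212 to 228. Among endothelial markers 0 of 6 reached a mean of 10. The leukocyte list summed to 17972 to 19836 normalized counts in control and 18697 to 19212 in BRD8 siRNA libraries, most of it from LYZ, the lysozyme gene, which airway secretory cells express as well.

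All 7 of the 10 genes that were abundant enough to test rose in the BRD8 siRNA libraries, by 0.65 to 1.89 on the log2 scale, and the other 3, TFF3, SCGB3A1 and VMO1, were at or near the limit of detection in both groups. A gene was tested when its mean over the 6 libraries was at least 10 normalized counts, and each of the 7 passed that level in the control libraries alone. A call means an adjusted p under 0.05 over all 15354 genes tested (limma, Benjamini-Hochberg). Of all tested genes 10.1% were called higher and 8.93% lower, and the median log2 fold change of all tested genes was -0.01, against 0.89 for the 7. As the genes were chosen with earlier results of these data known, this contrast is a description and no test. In each of the 7 every BRD8 siRNA library lay above every control library, as did 18.9% of all genes tested. Among the control libraries, library 2 held the highest value for 5 of the 7 genes and library 1 the lowest for 5.

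**Figure D1:**
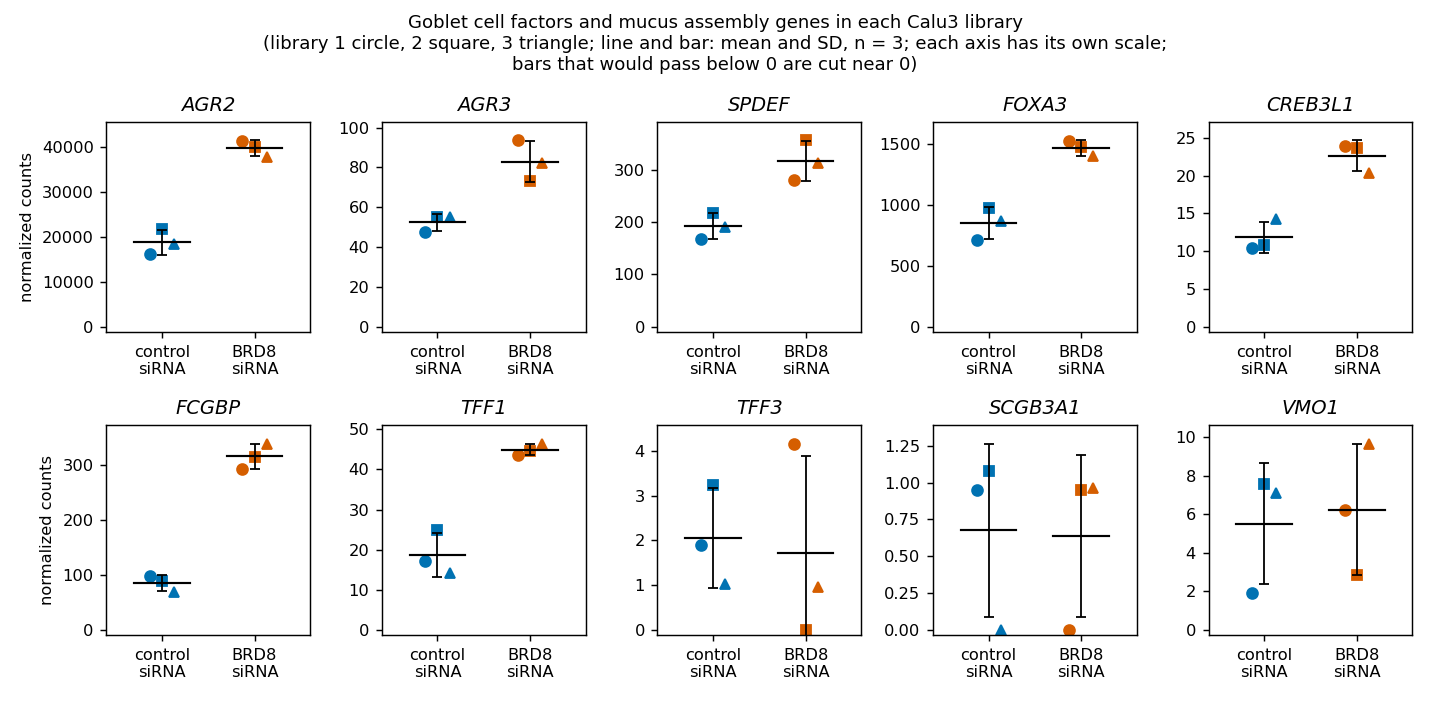
Normalized counts of the 10 genes (vertical axes, each with its own scale) in the control and BRD8 siRNA libraries of Calu3, with libraries 1, 2 and 3 as circle, square and triangle and the mean and SD over 3 libraries as a line and bar (bars that would pass below 0 end near 0). The points of the 2 groups are apart for AGR2, AGR3, SPDEF, FOXA3, CREB3L1, FCGBP and TFF1, and mixed for TFF3, SCGB3A1 and VMO1.

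Among the transcription factors, FOXA3 and SPDEF rose and CREB3L1 rose from a far lower level. FOXA3 measured 708, 973 and 871 normalized counts in control libraries 1 to 3 and 1526, 1473 and 1399.8 in BRD8 siRNA libraries 1 to 3. Its mean went from 851 ± 134 to 1466 ± 63.4, a 1.72-fold difference with a log2 fold change of 0.80 (95% interval 0.53 to 1.06, adjusted p = 0.00251). The control libraries spread more widely than the BRD8 siRNA libraries, and no value of one group reached the other.

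SPDEF measured 167, 217 and 191 normalized counts in the control libraries and 279.7, 356 and 312 in the BRD8 siRNA libraries. The lowest BRD8 siRNA library was still above control library 2, the highest of the controls. The mean of this ETS factor went from 192 ± 25.1 to 316 ± 38.1, a 1.65-fold difference (log2 fold change 0.72, 95% interval 0.41 to 1.03, adjusted p = 0.00771).

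CREB3L1 was rare, with 11, 10 and 14 reads in the control libraries and 23, 25 and 21 in the BRD8 siRNA libraries. In normalized counts these were 10.4, 10.8 and 14.2 against 23.9, 23.7 and 20.3, so the groups did not overlap. The log2 fold change was 0.89 (95% interval 0.31 to 1.47, adjusted p = 0.0417). At this depth the call was fragile: it ended without any 1 of the 6 libraries, where the adjusted p lay between 0.0587 and 0.135, and it was also lost in DESeq2 (adjusted p = 0.113), which called 11.2% of all genes higher. The authors' deposited table gives CREB3L1 a log2 fold change of 0.94, a standard error of 0.455 and an adjusted p of 0.137.

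Relatives of these factors did not all go the same way. FOXA1, a forkhead pioneer factor of the same family as FOXA3, stood at 592 ± 30.8 normalized counts in control and 922.0 ± 50.3 in BRD8 siRNA libraries, a rise of 0.64 on the log2 scale (adjusted p = 0.00163). FOXA2, the third of that family, measured 97.6, 107 and 78.3 normalized counts in the control libraries and 99.8, 115 and 103 in the BRD8 siRNA libraries, groups that overlapped (log2 fold change 0.18, adjusted p = 0.472). The epithelial ETS factor ELF3 rose by 0.44 (adjusted p = 0.0109, and 0.0592 without control library 3), while EHF, another, had a log2 fold change of -0.10 (adjusted p = 0.551). Of the CREB3 family, CREB3, CREB3L2 and CREB3L4 had log2 fold changes of 0.08, 0.20 and 0.04, none of them called. CREB3L3 was below the level for testing, at 9.48, 7.56 and 10.2 normalized counts in control and 3.12, 0.948 and 6.77 in BRD8 siRNA libraries. Its groups did not overlap, with the BRD8 siRNA libraries lower.

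AGR2 was the most abundant of the 10 genes and rose in all BRD8 siRNA libraries. It measured 16174, 21770 and 18287 normalized counts in control libraries 1 to 3 and 41231, 40075 and 37823 in BRD8 siRNA libraries 1 to 3. Every BRD8 siRNA library lay well above the highest control, library 2. The mean went from 18744 to 39709.9, a 2.12-fold difference (log2 fold change 1.09, 95% interval 0.85 to 1.34, adjusted p = 4.83e-04), and without control library 2 the log2 fold change was 1.21.

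AGR3, the paralog next to AGR2 on chromosome 7, was sparse. It measured 47.4, 55.1 and 54.9 normalized counts in the control libraries, from 50 to 54 reads each, and 93.6, 73.0 and 82.2 in the BRD8 siRNA libraries. The groups were apart, with BRD8 siRNA library 2 the nearest to the controls. The log2 fold change was 0.65 (95% interval 0.28 to 1.01, adjusted p = 0.0245). Leaving out 1 library ended the call in 4 cases: the adjusted p was 0.0776 with control library 1 left out, 0.0704 with control library 3, 0.0801 with BRD8 library 1 and 0.0806 with BRD8 library 3.

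The paralogs were also compared by their ratio in each library. The ratio of AGR2 to AGR3 normalized counts was 341, 395 and 333 in the control libraries and 441, 549 and 460.3 in the BRD8 siRNA libraries, so the 2 groups of ratios did not overlap. An exact two-sided permutation test over the 6 libraries gave p = 0.10, the smallest that 3 against 3 can give. The third gene of this family, TXNDC12, which encodes a resident isomerase of the endoplasmic reticulum, rose by 0.38 on the log2 scale, from 2039.6 ± 109 to 2663 ± 125 normalized counts (adjusted p = 0.00911).

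Among the mucus proteins FCGBP showed the largest change of the 10 genes. It measured 97.6, 89.6 and 68.1 normalized counts in control libraries 1 to 3 and 293, 315 and 338 in BRD8 siRNA libraries 1 to 3. The groups lay far apart beside the spread within either. The fold of the means was 3.71, with a log2 fold change of 1.89 (95% interval 1.55 to 2.24, adjusted p = 1.76e-04). Of all 15354 genes tested, 33 had a higher log2 fold change.

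TFF1, a trefoil peptide of gastric and airway mucus, went from 17.1, 24.8 and 14.2 normalized counts in the control libraries to 43.7, 44.6 and 46.4 in the BRD8 siRNA libraries. The 3 BRD8 siRNA values lay close together, while the controls spread more widely. The fold of the means was 2.40 (log2 fold change 1.25, 95% interval 0.70 to 1.80, adjusted p = 0.00862), from 14 to 48 reads a library. TFF2, the trefoil gene beside TFF1 on the chromosome, measured 8.53, 10.8 and 2.03 normalized counts in control and 26.0, 31.3 and 19.3 in BRD8 siRNA libraries. TFF2 reached the level for testing only through the BRD8 siRNA libraries, and its call (log2 fold change 1.90, adjusted p = 0.0309) was lost without BRD8 library 1, 2 or 3, at adjusted p = 0.0899, 0.104 and 0.0654, and with quantile normalization (0.0510).

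TFF3, the trefoil peptide typical of intestinal goblet cells, was barely detected. It had 2, 3 and 1 reads in the control libraries and 4, 0 and 1 in the BRD8 siRNA libraries. Only 1 of the 6 libraries held more than 3 reads, the floor used for detection, so no fold of the means is given. SCGB3A1 had 1, 1 and 0 reads in the control libraries and 0, 1 and 1 in the BRD8 siRNA libraries, below that floor in every library, again with no fold of the means. The related secretoglobin genes SCGB1A1, the club cell marker, and SCGB3A2 had means under 1 normalized count in both groups.

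VMO1 had 2, 7 and 7 reads in the control libraries and 6, 3 and 10 in the BRD8 siRNA libraries, and the groups overlapped. Pooled over libraries these were 16 and 19 reads, a ratio of BRD8 siRNA to control of 1.15 with an exact 95% interval of 0.562 to 2.40 that covers counting error only. When the filter on low values was left off, the fitted differences of log2(normalized count + 1), which for such low counts depend on the added 1 and are no measure of a fold, were -0.43 for TFF3 (95% interval -1.78 to 0.93), -0.03 for SCGB3A1 (-1.13 to 1.07) and 0.19 for VMO1 (-1.0 to 1.38), with adjusted p-values of 0.697, 0.993 and 0.862. Each interval spans 0 and is wide, so a difference of this size was not detectable at this depth.

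**Figure D2:**
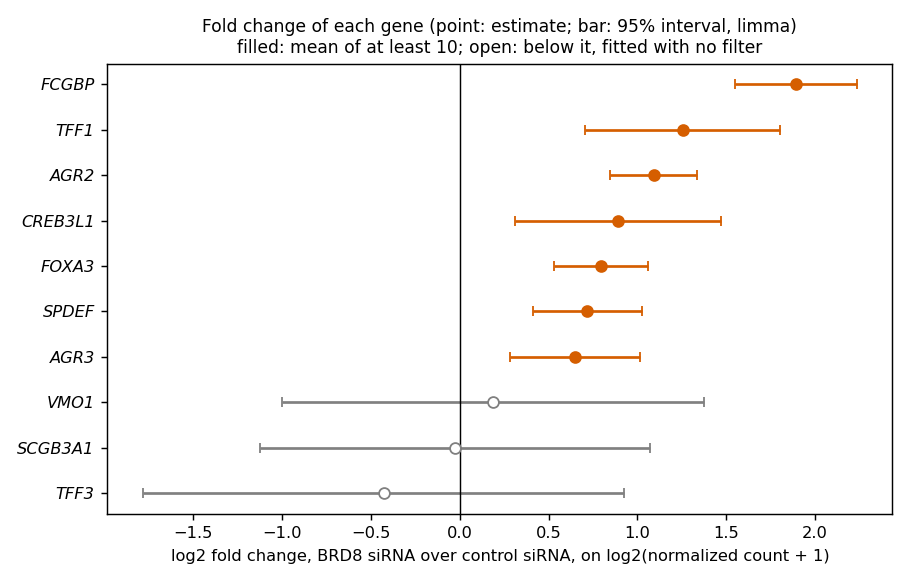
Difference of BRD8 siRNA and control siRNA for each of the 10 genes (horizontal axis, a log2 fold change on the log2(normalized count + 1) scale), with its 95% interval from limma. The 7 tested genes (filled) lie between 0.65 for AGR3 and 1.89 for FCGBP with intervals above 0, and the intervals of TFF3, SCGB3A1 and VMO1 (open, fitted without the filter) span 0.

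The calls differed in how firmly they stood. FCGBP, AGR2, FOXA3 and SPDEF were called in all 17 alternative analyses, and TFF1 in all 16 in which it was tested, with log2 fold changes of 1.74 to 2.00, 0.99 to 1.21, 0.66 to 0.90, 0.59 to 0.81 and 1.09 to 1.47. AGR3 was called in 13 of 17 and CREB3L1 in 4 of 16. None of the 7 changed direction in any of these analyses. The number called higher was 5 or 6 when any 1 library was left out, and none was called lower.

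**Figure D3:**
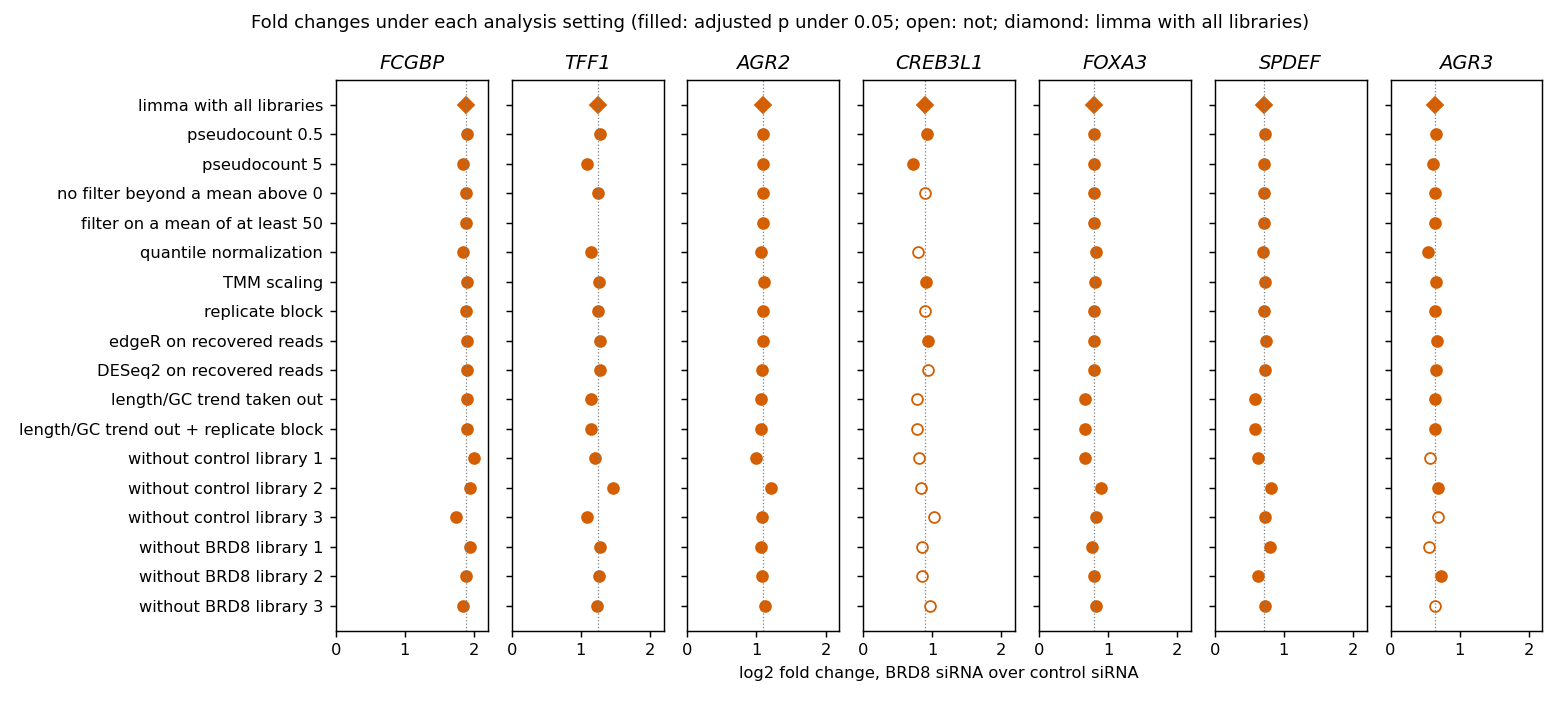
Log2 fold change (horizontal axes) of the 7 tested genes under limma with all libraries (diamond) and under each alternative analysis (rows), filled where the adjusted p was under 0.05. Every point lies above 0, and open points occur for CREB3L1 and AGR3 alone.

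Levels of different genes can be set side by side only per length of transcript. Per kilobase of the longest GENCODE transcript, control levels ran from AGR2 at 10542 ± 1589 normalized counts, through FOXA3 at 428 ± 67.1, SPDEF at 101 ± 13.2, AGR3 at 70.0 ± 5.85 and TFF1 at 34.0 ± 9.96, to FCGBP at 9.07 ± 1.63. Below these were VMO1 at 7.21 ± 4.11, CREB3L1 at 4.40 ± 0.780, TFF3 at 1.85 ± 1.01 and SCGB3A1 at 0.947 ± 0.825. The control libraries of neighbours in this order did not overlap from AGR2 down to FCGBP, nor between CREB3L1 and TFF3. FCGBP and VMO1, VMO1 and CREB3L1, and TFF3 and SCGB3A1 could not be ordered beyond their spread. In the BRD8 siRNA libraries AGR2 stood at 22334 ± 975 per kilobase, and FCGBP, at 33.6 ± 2.41, was above the whole range of VMO1, 3.71 to 12.6.

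The promoters of 7 of the 10 genes were found in a RefSeq table of windows from 250 bases before to 50 bases after the annotated start (GRCh38.p14, a later build than the data). AGR2 and AGR3 are shown as neighbouring paralogs, and SPDEF and FOXA3 as the factors called in all 17 alternative analyses. The windows are written 5′ to 3′ on the gene's strand, with capitals where one of the searched motifs lies.
AGR2 promoter, chr7:16804950-16805249, minus strand: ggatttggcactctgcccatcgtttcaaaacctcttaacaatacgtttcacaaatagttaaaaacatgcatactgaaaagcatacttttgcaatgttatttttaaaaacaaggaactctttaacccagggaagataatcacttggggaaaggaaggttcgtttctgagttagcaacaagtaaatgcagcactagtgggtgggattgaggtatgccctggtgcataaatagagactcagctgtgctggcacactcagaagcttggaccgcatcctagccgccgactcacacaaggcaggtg
AGR3 promoter, chr7:16881934-16882233, minus strand: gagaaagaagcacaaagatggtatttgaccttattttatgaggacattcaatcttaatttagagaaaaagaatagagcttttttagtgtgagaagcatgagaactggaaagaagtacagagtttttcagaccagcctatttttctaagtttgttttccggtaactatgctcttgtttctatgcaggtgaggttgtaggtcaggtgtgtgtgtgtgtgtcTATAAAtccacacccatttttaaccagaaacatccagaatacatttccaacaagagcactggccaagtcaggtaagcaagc
SPDEF promoter, chr6:34556280-34556579, minus strand: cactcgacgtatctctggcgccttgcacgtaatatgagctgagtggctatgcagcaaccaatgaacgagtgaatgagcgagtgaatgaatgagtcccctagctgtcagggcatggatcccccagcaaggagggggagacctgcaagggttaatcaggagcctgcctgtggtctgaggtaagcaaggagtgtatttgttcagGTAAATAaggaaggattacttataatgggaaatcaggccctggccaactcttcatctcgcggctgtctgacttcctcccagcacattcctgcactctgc
FOXA3 promoter, chr19:45864076-45864375, plus strand: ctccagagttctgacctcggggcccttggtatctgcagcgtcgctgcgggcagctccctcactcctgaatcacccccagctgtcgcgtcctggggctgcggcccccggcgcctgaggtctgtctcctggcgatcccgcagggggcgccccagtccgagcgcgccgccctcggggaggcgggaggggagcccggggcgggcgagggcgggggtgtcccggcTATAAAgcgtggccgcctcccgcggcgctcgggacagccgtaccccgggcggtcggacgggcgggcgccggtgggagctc
The motifs, searched on both strands, were the forkhead-type cores TGTTTAC and TGTTTGC and a further such core, TATTTAC, the ETS-type core CCGGAT, the CREB-type core TGACGTG and the TATA box core TATAAA. SPDEF held TATTTAC on the reverse strand, read as GTAAATA above, with its first printed base 49 bases before the start. AGR3 and FOXA3 held TATAAA, 31 and 30 bases before the start, and neither overlapped another motif. Among the 35116 windows of this length in the table, 9.57% held 1 or more of the 3 forkhead-type cores, 11.5% held TATAAA, 7.12% CCGGAT and 1.97% TGACGTG. The other searched motifs were not in these 7 windows, which says nothing of the factors. The window of AGR2 was 43.7% G and C, that of AGR3 38.0%, of SPDEF 52.0% and of FOXA3 76.3%.

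Other lists of secretory cell genes place the 10 among their pathway, and they were described by counts and medians with no test of a list. Their counts are to be read against the 10.1% of all tested genes called higher and the 8.93% called lower. These lists too were chosen with earlier results of these data known. Of 19 other goblet and club cell products 7 could be tested, of which 5 rose and none fell, with a median log2 fold change of 0.87. ZG16B and TFF2 reached the level for testing only through the BRD8 siRNA libraries, and among the other 5 tested genes 3 rose, with a median of 0.44. ZG16B, a secreted lectin, measured 7.58, 9.72 and 11.2 normalized counts in control and 47.8, 46.5 and 39.6 in BRD8 siRNA libraries (log2 fold change 2.13, SE 0.243, adjusted p = 8.97e-04). BPIFB1, a lipid-binding protein of airway secretions, rose from 140.0 ± 10.6 to 276 ± 47.9, and the secreted MSMB from 49.2 ± 8.19 to 90.9 ± 15.0 (adjusted p = 0.00249 and 0.0140). TCN1, a secreted cobalamin binder, rose by 0.39 (adjusted p = 0.0175), a call lost without control library 1 or 3 or BRD8 library 2 or 3 (0.0533 to 0.0903). The number that rose was 3 without BRD8 library 1, 2 or 3 and 3 at a mean of at least 50, and the call of MSMB ended without BRD8 library 1 (adjusted p = 0.0519).

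Of 14 mucin genes 11 were tested, 4 rose and none fell (median 0.42), beside 10.1% and 8.93% of all tested genes. MUC16, which was not called, reached the level for testing only through the BRD8 siRNA libraries (means of 9.34 and 25.6 normalized counts). Among the other 10 tested mucins 4 rose, with a median of 0.40. MUC5B, a gel-forming airway mucin, went up from 3431 ± 584 to 6107 ± 527 normalized counts (by 0.84 on the log2 scale, adjusted p = 0.00280), and the membrane mucins MUC20, MUC13 and MUC1 rose by 1.23, 0.42 and 0.57, the call of MUC1 ending when a trend on length and GC content was removed together with the replicate block (adjusted p = 0.0544). MUC5AC, the gel-forming mucin that marks airway goblet cells, measured 39457, 35543 and 41991 normalized counts in control and 54390.5, 44278 and 45689 in BRD8 siRNA libraries. The groups did not overlap, but the gene did not pass in limma (log2 fold change 0.30, adjusted p = 0.0708). The authors' deposited comparison gives MUC5AC a log2 fold change of 0.30 and an adjusted p of 0.0345. The mucins that rose numbered 7 in DESeq2, and 1 mucin fell without BRD8 library 1.

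Among 26 other regulators of secretory cells, 21 were tested, 6 rose and none fell, beside 10.1% and 8.93% of all tested genes. Their median was 0.06. Beside FOXA1 and ELF3, STAT6 and STAT3, signal transducers of cytokine receptors, rose by 0.40 and 0.35 (adjusted p = 0.00953 and 0.0148), the last call ending without BRD8 library 3 (0.0722). XBP1, the factor of the unfolded protein response that secretory cells need, was level at a log2 fold change of 0.02 (adjusted p = 0.897). Leaving out control library 3 lowered the number that rose to 3. The number that fell was 6 when control library 2 was left out and 1 when BRD8 library 1 was. The fit without control library 2 called 2784 of all 15354 tested genes lower, against 1371 with all libraries.

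A further list held enzymes that form and rearrange disulfide bonds in the secretory pathway, the class that AGR2 and AGR3 belong to, and the stress sensors ERN1 and ERN2. Of its 25 tested genes 7 rose and 2 fell (median 0.05), beside 10.1% and 8.93% of all tested genes. With the sensors set aside these were 7 and 2 of 23, with the same median. QSOX1, a sulfhydryl oxidase, rose by 0.44 on the log2 scale, from 16876.5 ± 265 to 22823 ± 296 normalized counts (adjusted p = 0.00244). ERO1B, an oxidase that recharges these isomerases, fell from 197 ± 5.88 to 109 ± 6.95 (log2 fold change -0.84, adjusted p = 0.00172), and TMX3, a transmembrane isomerase, fell by 0.54 (adjusted p = 0.0117, and 0.0597 without control library 3). With control library 1 left out 3 rose, and with control library 3 left out 2 rose and 1 fell. The rises numbered 3, 2 and 3 when BRD8 libraries 1, 2 and 3 were left out in turn, 10 when control library 2 was, and 4 with no filter. Over all 15354 tested genes, 2445 were called higher without control library 2, against 1549 with all libraries. ERN2, the stress sensor of mucus-secreting epithelia, measured 123, 137 and 163 normalized counts in control and 229, 169.7 and 181 in BRD8 siRNA libraries, which did not pass (adjusted p = 0.0781).

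Genes of granule exocytosis, the step that releases mucin, stood near all tested genes in rises and in median. Of 25 tested, 3 rose and 1 fell, with a median of 0.02, against 10.1% and 8.93% of all genes. Every BRD8 siRNA library lay above every control library for 7 of the 25, beside 18.9% of all genes. For 8 of the 25 every one lay below. That share was not taken over all genes, so the 8 cannot be called more or fewer than among all genes. SYTL2, a Rab27 effector, rose by 1.19 on the log2 scale, from 186 ± 9.88 to 425 ± 34.1 normalized counts (adjusted p = 2.73e-04), and the priming factors UNC13B and UNC13D rose by 0.46 and 0.34. The call of UNC13D ended without control library 1 or 3 or BRD8 library 2 or 3 (adjusted p = 0.0515 to 0.0833). Without control library 2, 5 of these genes rose and 5 fell, in a fit that called 2445 of all 15354 tested genes higher and 2784 lower. With all libraries these were 1549 and 1371. None of the exocytosis genes fell without control library 1 or 3 or BRD8 library 2 or 3, fits that called 528 to 804 of all genes lower.

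**Figure D4:**
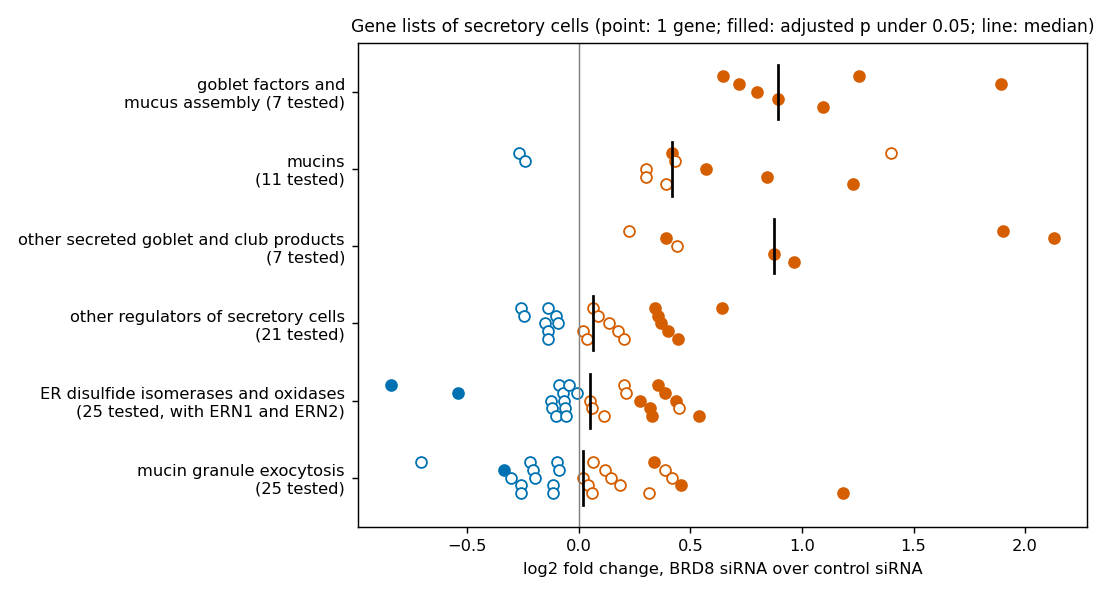
Log2 fold change of BRD8 siRNA over control siRNA (horizontal axis) for each tested gene of the 10 goblet factor and mucus assembly genes and of the 5 wider lists, filled where the adjusted p was under 0.05, with the median of each list as a line. The median was 0.89 for the 7 tested goblet genes, 0.87 for other secreted products, 0.42 for mucins and 0.02 to 0.06 for the other lists. TFF2, ZG16B and MUC16 reached the level for testing only through the BRD8 siRNA libraries. Without them the median was 0.44 for other secreted products and 0.40 for mucins.

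Some chromosomal neighbours of the 7 genes that rose were called and others were not. Of all tested genes 10.1% were called higher and 8.93% lower. AGR2 and AGR3, both called, are neighbours of each other, and TFF2, beside TFF1, was called higher as given above. C6orf106 beside SPDEF and DGKZ beside CREB3L1 were not called (adjusted p = 0.282 and 0.921), although the groups of C6orf106 did not overlap. PACSIN1, also beside SPDEF, was below the level for testing. The protein-coding neighbours of AGR2 and AGR3 on the outer sides, TSPAN13 and AHR, had log2 fold changes of 0.04 and 0.09 (adjusted p = 0.683 and 0.734), although AHR was called higher when a trend on length and GC content was removed together with the replicate block (0.20, adjusted p = 0.0189). TMPRSS3, a serine protease gene on the other side of TFF1 from TFF2, rose by 0.70 on the log2 scale, from 295 ± 34.0 to 476 ± 22.0 normalized counts (adjusted p = 0.00358). PHF21A, beside CREB3L1, fell by 0.39 (adjusted p = 0.0148), a call lost without control library 1 or 3 or BRD8 library 3 (0.0532 to 0.0689). For SYMPK and IRF2BP1 beside FOXA3 and for FBL and PSMC4 beside FCGBP the adjusted p-values were 0.476, 0.475, 0.321 and 0.230, although FBL was called lower once a trend on length and GC content was removed (log2 fold change -0.31, adjusted p = 0.00786) and PSMC4 higher without control library 2 (0.28, adjusted p = 0.0262). No exon of the 10 genes overlaps that of another gene in GENCODE.

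Across the 6 libraries genes with a profile most like that of AGR2 included SNCG, CYR61, DEFB1 and PAQR7, with Pearson r of 0.9997, 0.9979, 0.9978 and 0.9978 on the log2 scale. This is a description of 6 libraries that fall into 2 treatment groups, among 15353 genes compared. SNCG measured 79.6, 126 and 92.5 normalized counts in control and 335, 324 and 289 in BRD8 siRNA libraries, highest among the controls in library 2, as was AGR2.

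Some basal cell markers moved beside these genes. Of 7 basal cell markers 6 were tested, 3 rose and none fell, beside 10.1% and 8.93% of all tested genes. The list summed to 766 to 1016 normalized counts in control and 1406.5 to 1656 in BRD8 siRNA libraries. The keratins KRT14 and KRT15 rose by 1.33 and 0.69, and TP63, the defining factor of basal cells, by 1.01 from 13.1 normalized counts (adjusted p = 0.0182, lost without control library 3 or BRD8 library 1, 2 or 3 at 0.0533 to 0.0720). KRT5, NGFR and DLK2 overlapped between the groups, at log2 fold changes of -0.06, -0.37 and -0.15. The ciliated list summed to 709 to 867 in control and 743 to 773 in BRD8 siRNA libraries, ranges that overlapped. Of 3 tested genes in that list 1, CCDC78, rose by 0.73 (adjusted p = 0.0169, and 0.0669 to 0.0728 without control library 3 or BRD8 library 2 or 3). FOXJ1, the defining factor of ciliated cells, had means of 5.32 and 10.4 over the groups. In bulk RNA a change in the share of cells of a type and a change of RNA per cell cannot be told apart, and the part of these markers in the rises of the goblet genes was not tested.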

How the data were processed

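RNA-seq of 6 Calu3 samples was analysed, 3 per siRNA, grouped by sample title. The titles name Calu3, while the shared extraction protocol names HBE cells. The TruSeq v2 kit does not mark strand. STAR 2.6, featureCounts 1.6.3, DESeq2 1.22.1 and build hg19 are listed in the submitters' processing notes, with no role or setting. The annotation was not given in the sources used here. Values as deposited are a normalized signal: they are whole reads divided by 1 size factor per library, as read from the values themselves. Beside them, per the file headers, the authors list each gene's log2 fold change and its error, the test's score, and its p-value before and after adjustment.

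Whole reads were recovered from the steps of each library (100% of values whole within 0.01), and 3 reads, the detection floor (for counting error alone), equal 2.84 to 3.24 normalized counts. Limma 3.58.1 (R 4.3.3) with a variance trend was run on log2(value + 1) for 15354 genes with a mean of at least 10, which understates changes of low genes. On recovered reads edgeR 4.0.16 called 1640 genes higher and 1329 lower and DESeq2 1.42.0 1727 and 1609, against 1549 and 1371 in limma. The model was tested on simulated data. Lengths and GC content came from GENCODE 29 (1892 of 26364 symbols had no match).

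The members and lists were chosen with earlier results of these data known. Named are BRD8, the 10 members, up to 4 called genes per list with the smallest adjusted p (added after their values were seen: relatives of members, MUC5AC, XBP1, ERN2, ITLN1, MUC21 and markers of other cell types), neighbours, and genes among the 5 most like AGR2 by Pearson r. Some genes that this rule names are not reported here.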

Additional observations from a re-analysis of the deposited data

How the results depend on the processing

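Over all genes, 2700 were lower after a trend on length and GC content was taken out, and 2378 higher and 2907 lower with that trend and the replicate block, against 1549 and 1371. With 1 library left out, all genes higher numbered 832 to 2445 and lower 528 to 2784, and the goblet genes higher 5 to 6 and lower 0. In the same fits the mucins higher numbered 4 to 6 and lower 0 to 1, other secreted products higher 3 to 5 and lower 0, regulators higher 3 to 6 and lower 0 to 6, disulfide enzymes higher 2 to 10 and lower 1 to 3, and exocytosis genes higher 2 to 5 and lower 0 to 5. Elsewhere, disulfide enzymes higher were 4 with no filter and other secreted products higher 3 at a mean of at least 50. Regulators lower were 1 at that mean and with quantile normalization, 2 in DESeq2, and 2 with the trend taken out, with or without the block. Mucins higher were 7 in DESeq2. Exocytosis genes were 5 higher and 6 lower with the trend taken out, with or without the block.

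Replicate numbers are shared by the groups, and so few libraries cannot tell whether these numbers pair the samples. Deviations of same-numbered libraries correlated at -0.08, 0.34 and 0.15, and those of differently numbered libraries at -0.36 to 0.33. With the replicate block 1939 genes were higher and 1962 lower, and mucins higher were 7, regulators lower 2 and exocytosis genes lower 3. The goblet genes higher were then 6, CREB3L1 having an adjusted p of 0.0628, and BRD8 kept its log2 fold change of -1.30.

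CREB3L1 lost its call with no filter (adjusted p = 0.0618), with quantile normalization (0.0648), and with the trend taken out alone (0.0528) or with the block (0.0755). The cause of these shifts was not tested. CREB3L1, TFF1 and AGR3 rest on 10 to 90 reads a library, and TFF3, SCGB3A1 and VMO1 on too few for a test.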

Other observations

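A pair of secretory genes that were too rare for the test, singled out after their values were seen, had reads almost wholly in the BRD8 siRNA libraries. As the pair was picked for this difference, the ratios and the interval below are description only. Rare genes of the lists did not all go this way: CREB3L3, given above, was lower in the BRD8 siRNA libraries. ITLN1, which encodes a lectin secreted by goblet cells, had 1 read over the 3 control libraries and 34 over the 3 BRD8 siRNA libraries, a ratio of 33.1 with an exact 95% interval of 5.54 to 1340 that covers counting error only. Its BRD8 siRNA libraries held 9.48 to 13.5 normalized counts. MUC21, a membrane mucin, had no read in control and 33 in BRD8 siRNA libraries, at least 10.7-fold higher against a floor of 3 reads over the control group, with 3.87 to 16.1 normalized counts in the BRD8 siRNA libraries.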
